A study of Mus musculus with 57 samples.

Results

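Of the 28 single cells sorted as dormant in this study of prostate cancer in mouse bone, 6 carried almost none of the tumour label and 9 to 18 of 18 pan-leukocyte genes above 0, and these low-label cells are described here gene by gene. They were chosen by their measured values: eCFP, the cerulean fluorescent protein gene of the injected line, was under 100 normalised reads. The comparison side, called labelled cells here, was chosen by eCFP of at least 100 and fewer than 5 of those 18 genes above 0, which 14 of the 28 cells met. The other 8 dormant-sorted cells had the label together with 5 or more leukocyte genes and belong to neither side. Because eCFP and the 18 genes set the sides, every difference between them is a description with no test, and eCFP and these 18 genes are left out of the counts of genes without overlap; Luc2, not used by the rule, is counted.

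The series holds 57 cells from 8 C57BL/6 mice. All mice received RM1 cells, a mouse prostate cancer line that expresses eCFP and firefly luciferase (Luc2), by injection into the heart after staining with the membrane dye PKH26. The sort took dye-positive marrow cells as dormant and dye-negative ones as proliferating, and each cell was sequenced on its own with a full-length protocol; both sides described here are dye-positive. Every sorted cell is named an RM1 cell in the labels, all tumour cells come from 1 line, and no leukocyte control is among the samples analysed here. The 6 low-label cells came from 4 mice: cell 33 from mouse 244 at day 26 after injection, cells 110 and 111 from mouse 360 at day 17, cells 25 and 27 from mouse 369 at day 17, and cell 103 from mouse 1184 at day 15. The 14 labelled cells also came from 4 mice, with 2 each from mouse 369 (day 17), mouse 452 (day 16) and mouse 1184 (day 15) and 8 from mouse 1185 (day 14). Mice 369 and 1184 gave cells to both sides. In the other mice the side, the mouse and the day of sorting cannot be told apart.

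The bone marrow makes the myeloid leukocytes. Neutrophils are short-lived cells packed with granules, whose proteins are made in waves: primary granule enzymes such as myeloperoxidase (Mpo) and elastase (Elane) in early precursors, lactoferrin (Ltf) and cathelicidin (Camp) later, and the calcium-binding pair S100a8 and S100a9 in quantity up to the mature cell. Monocytes and macrophages share with them lysozyme (Lyz2) and the signalling adaptors Tyrobp and Fcer1g, and are marked by the growth factor receptor Csf1r, the surface receptor Adgre1 (F4/80) and, in tissue macrophages, complement C1q and apolipoprotein E. The transcription factor PU.1, product of Spi1, drives both lineages and binds DNA at a purine-rich core, GAGGAA. RM1 cells are epithelial in origin and express the simple-epithelium keratins Krt8 and Krt18 beside a mesenchymal cytoskeleton.

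Promoter stretches of 3 genes without overlap between the sides are shown. Clec4e and Ccl3 were picked because the stretch carries the PU.1 core, and genes with larger differences were passed over. Their matches are therefore examples and not a result. Crabp1, the gene with the largest negative difference, has no match in the stretch shown. Each stretch is 100 bases from RefSeq (GRCm38.p6) lying upstream of the gene as annotated, written 5′ to 3′ on the strand of the gene, with GAGGAA or its reverse complement TTCCTC in capitals. Clec4e (chr6:123289872-123289971, minus strand) and Ccl3 (chr11:83649379-83649478, minus strand) were higher in every low-label cell than in any labelled cell, and Crabp1 (chr9:54764648-54764747, plus strand) was lower in every one.
Clec4e: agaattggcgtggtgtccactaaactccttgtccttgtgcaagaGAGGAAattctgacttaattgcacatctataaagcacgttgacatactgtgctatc
Ccl3: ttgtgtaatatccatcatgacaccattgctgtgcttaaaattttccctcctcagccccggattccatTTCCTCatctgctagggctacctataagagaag
Crabp1: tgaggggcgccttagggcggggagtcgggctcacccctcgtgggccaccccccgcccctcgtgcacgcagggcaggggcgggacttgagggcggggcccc
Clec4e, the receptor Mincle, and Ccl3, a chemokine, each held 1 match in the stretch shown. Over windows of 300 bases around the start, 1 per gene and both strands, the motif occurred in 28.3% of 27025 promoters and in 26.7% of the 8412 described genes with a promoter in the table. It occurred in 15 of the 34 promoters available for genes with every low-label cell above (44.1%), and in 18 of the 88 available for genes with every low-label cell below (20.5%). Crabp1 is among the latter, through a match elsewhere in its window. A match is a count of letters and does not show a bound site.

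The label itself set the low side, so its values are given without a test. In the order of cells 25, 33, 27, 110, 111 and 103, which is used for all lists of 6 values, eCFP was 0, 2.15, 87.6, 3.44, 2.28 and 2.66 normalised reads. These values rest on 0, 1, 76, 2, 1 and 2 sequenced reads. The 14 labelled cells ranged from 601 to 5256 with a median of 2361. Cell 27 was the nearest to the threshold from below, and the next dormant-sorted cell above it, with eCFP at 349, had 5 leukocyte genes and so fell outside both sides. Luc2, the second gene of the tumour label and not used by the rule, was 15.7, 4.30, 230, 6.88, 2.28 and 16.0 in the low-label cells against 2145 to 26410 in the labelled cells, so the sides did not overlap. The low-label cells had 13, 18, 16, 18, 15 and 9 of the 18 leukocyte genes above 0, and the labelled cells 1 to 4 with a median of 3.

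**Figure D1:**
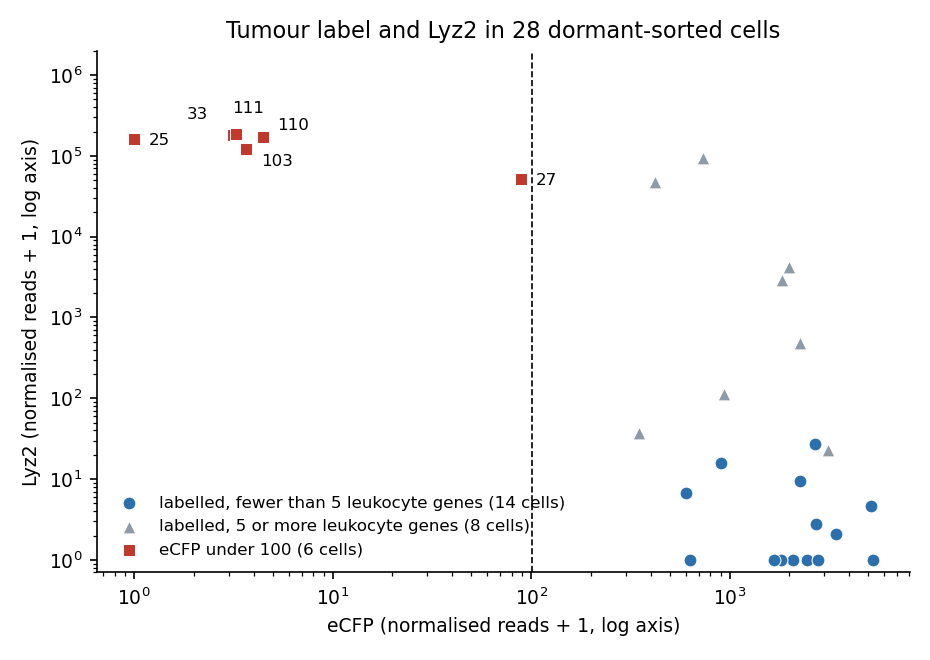
Each point is 1 of the 28 dormant-sorted cells; the x axis gives eCFP and the y axis Lyz2, both as normalised reads plus 1 on log axes, and the dashed line marks the eCFP threshold of 100. The 6 low-label cells, numbered, lie between 52146 and 188632 for Lyz2, and the 14 labelled cells with fewer than 5 leukocyte genes lie at or below 26.1.

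The named markers were checked in each low-label cell. Lyz2 (lysozyme, chr10:117277331-117282321 on GRCm38, minus strand) was 163585, 179226, 52146, 173289, 188632 and 120425, and took 2.05% to 5.87% of a cell's normalised reads. All 6 values lay above the highest labelled cell, at 26.1, where the median was 0.533. Tyrobp (chr7:30413760-30417585, plus strand) was 17178, 8989, 7038, 12311, 15036 and 23763 against at most 3.07. Ptprc, the pan-leukocyte surface protein CD45 and 1 of the 18 genes of the rule, was above 0 in 5 of the 6 cells and at 0 in cell 103. S100a8 (chr3:90668978-90670035, plus strand) split the cells: it was 378089 in cell 25 and 180886 in cell 33, and 11.5, 1.72, 0 and 0 in the other four. The epithelial keratins of the line were almost absent, with Krt8 at most 9.40 and Krt18 at most 3.13 normalised reads in any low-label cell. The cells labelled by the series as dormant RM1 cells thus had next to none of the transgene and keratin signal of the labelled cells, and all 6 carried lysozyme and Tyrobp. The cause of this was not tested.

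Of the 6 cells, 3 stood apart in ways that bear on what follows. Cell 25 had the fewest genes above 0, 2673, against 4828 to 9618 (median 7854) in the labelled cells. Cell 33 held transcripts of several blood lineages at the same time, described further on. Cell 27 had the highest label. Genes above 0 numbered 6780, 5926, 7978, 4527 and 3316 in cells 33, 27, 110, 111 and 103, and the difference of the mouse means was −2349 genes. Recovered reads overlapped, with 1421017 to 3005891 per low-label cell and 1310736 to 4529156 per labelled cell, and 26 to 45 against 25 to 44 spike-in RNAs were above 0. Mitochondrial transcripts took 1.02% to 2.54% of the normalised reads in low-label cells, within the 0.172% to 7.59% of labelled cells. The 10 leading genes of a cell took 15.4% to 34.8% of its reads in low-label cells and 6.32% to 13.0% in labelled cells, with no overlap. The part of this concentration and of the lower gene number in the differences between the sides was not tested.

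The leading genes of each low-label cell showed what these reads were. In cell 25 they were S100a8 (7.52% of the reads), S100a9 (6.28%), the ferritin heavy chain Fth1 (5.44%), Lyz2 and the cytokine gene Il1b (3.24%). S100a8 (5.93%), Lyz2 (5.87%) and S100a9 (3.83%) led cell 33, followed by the ferritin light chain Ftl1 and the granule gene Ngp. Ferritin led the other four, with Fth1 first in cells 27, 110 and 111 (3.34%, 4.47% and 7.29%) and Ftl1 first in cell 103 (8.69%). The lysosomal protease Ctsb was also among the leading genes of cells 110 (4.11%), 103 (2.36%) and 111 (1.17%). Apoe took 2.76% of the reads in cell 110 and 0.816% in cell 103. These are shares of reads in a full-length protocol, where a longer transcript gives more reads.

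Across all genes the low-label cells were low more often than high. A total of 11299 genes, above 0 in at least 3 of the 20 cells, were described. A gene at 0 in every cell of 1 side passes this filter through the other side alone, which fixes the sign of its difference. Where 1 side is near 0 for a list, its counts of positive or negative members are therefore descriptions. Differences are low-label minus labelled, as means over mouse means of log2(value + 1) with the SE over 4 mice a side, and they also reflect how many cells had the gene above 0, so they are not folds. The median difference was −1.71, with 2210 genes positive and 9089 negative. Every low-label cell lay above every labelled cell for 47 genes (0.416% of those described) and below every labelled cell for 126 (1.12%), of which Luc2 is 1. This split followed the scaling in part: it was 71 above and 80 below after a median-of-ratios rescaling, where the median of all genes was −1.32, and 43 and 148 after every cell was rescaled to the same total, with a median of −1.29. Differences are given on the deposited scale, and smaller ones should be read against these medians. Of the 47 genes, 32 also lay above all 22 proliferating-sorted cells with fewer than 5 leukocyte genes, and 10 were at 0 in all 14 labelled cells. Of the 126 genes, 37 also lay below all 22 proliferating-sorted cells, and 12 were at 0 in all 6 low-label cells.

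**Figure D2:**
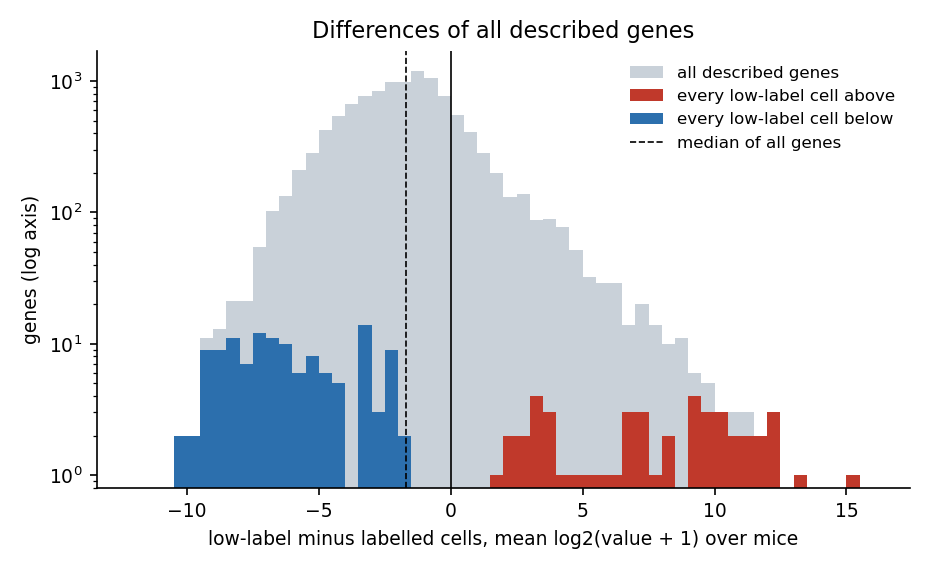
The histogram gives the number of genes (log axis) by their difference, low-label minus labelled cells in mean log2(value + 1) over mice; grey bars are all 11299 described genes, and coloured bars are the genes with every low-label cell above (47) or below (126) every labelled cell. The dashed line marks the median of all genes at −1.71, left of 0.

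The counts depended on single cells and mice. A gene is harder to separate with more cells, so leaving cells out raises the counts by construction. Without cell 25 there were 105 genes above and 136 below, and without both S100a8-high cells 135 and 153. Leaving out mouse 369 gave 135 and 212, mouse 1184 gave 96 and 162, mouse 360 gave 62 and 321, and mouse 1185 gave 64 and 404. Against all 22 labelled dormant-sorted cells, the 8 leukocyte-rich ones included, the counts were 13 and 61. Low-label cells also resembled one another less than labelled cells did: Pearson's r of log2(value + 1) over 12887 genes was 0.283 to 0.574 (median 0.434, 15 pairs), against 0.489 to 0.780 (median 0.603, 91 pairs) among labelled cells. Between cells of different mice the medians were 0.434 (13 pairs) and 0.598 (60 pairs), as a description of cells that differ in gene number.

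The 15 genes with the largest positive differences and no overlap were led by myeloid genes. Lyz2 led, with a mean of 17.07 ± 0.47 (SD over 4 mice) against 1.62 ± 1.70 and a difference of 15.45 (SE 0.88). Tyrobp followed at 13.16 (SE 0.56). Its partner Fcer1g, the signalling chain of Fc receptors, was 6903 to 20238 in low-label cells, against at most 134 in labelled cells, a difference of 12.45 (SE 0.66). The lysosomal protease Ctss differed by 12.22 (SE 1.62), and 5 of its values were 8234 to 95326 while cell 25 had 6.26, just above the highest labelled cell at 2.96. In cell 25 1 read was worth 3.13, so the lack of overlap for Ctss rests on very few reads. Wfdc17, a small secreted protein gene of myeloid cells, and Alox5ap, the activator of leukotriene synthesis, were at 0 in all 14 labelled cells. Wfdc17 was 1344 to 13370 and Alox5ap 771 to 4354 in the low-label cells. The schlafen gene Slfn2 differed by 11.23 (SE 0.46), and the mitochondrial carrier Ucp2 by 11.13 (SE 0.36). A pair of C-type lectin receptors of myeloid cells, Clec4d and Clec4e, differed by 10.54 (SE 0.87) and 10.06 (SE 1.64). Clec4e was highest in cell 25 (18575) and lowest in cell 111 (25.0), against at most 1.72 in a labelled cell. Tnf, the tumour necrosis factor gene, was 13547, 127, 1013, 6251, 703 and 2601, and at most 0.913 in labelled cells. Cd74, the invariant chain of class II presentation, differed by 10.07 (SE 1.28), and Igsf6 by 9.96 (SE 0.63). For Cd74 the value of cell 25 (3.13) and the highest labelled value (1.53) were 1 read each. Its lack of overlap therefore rests on how reads were scaled. A pair of genes listed here under an identifier or a provisional symbol completed the 15, ENSMUSG00000089672 at 12.48 and Gm49339 at 11.74. Their reads could be shared with near-identical copies. Ctss overlaps another gene on its own strand, as do Ptprc, Nedd4 and Cnn3. Igsf6, Csf1r, Irf7, Ccnd1, Mcm7, Rps18, Dusp1 and Malat1 overlap one on the other strand. Reads of such pairs may be split between the genes, since the use of strand in counting is not given in the sources used here.

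**Figure D3:**
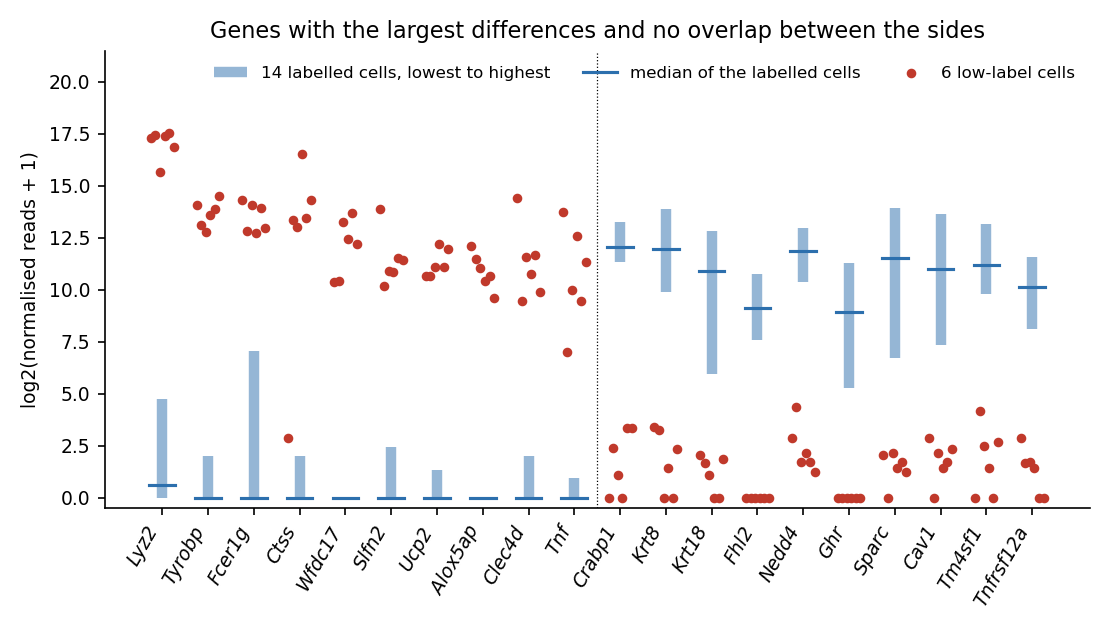
For 10 genes with every low-label cell above and 10 with every low-label cell below, red points give the 6 low-label cells and blue bars the range of the 14 labelled cells, with a line at their median, all as log2(normalised reads + 1). Lyz2 is at 15.67 or more in every low-label cell, and Fhl2 and Ghr lie at 0 in all 6.

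Among the lists with members above all labelled cells, monocyte and macrophage genes had the most. Of its 24 genes 22 were described, 20 with a positive difference, and 7 lay above all labelled cells (Lyz2, Tyrobp, Fcer1g, Ctss, Mpeg1, Lgals3 and Cybb). Over all described genes that share was 0.416%. The lowest values of Mpeg1 (3.13), Cybb (6.26) and Ctss (6.26) were those of cell 25, where 1 read was worth 3.13. Their lack of overlap rests on very few reads. The list's median was 6.37, beside −1.71 for all genes. The list's level was uneven among the 6 cells, with 10, 19, 19, 22, 19 and 16 of its 23 measured genes above 0. Csf1r, the receptor for the macrophage growth factor, was 0, 2.15, 20.7, 4162, 487 and 3850, and its difference of 5.47 (SE 2.81) rested on the last 3 cells. Adgre1 was at 0 in cells 25 and 33 and 942, 2891, 2029 and 807 in the others. Among products secreted by macrophages, cell 25 alone stood apart, and cell 33 had 7 of 8 above 0. C1qb, a chain of complement C1q, was 0, 934, 6609, 5686, 1360 and 10670 and differed by 9.76 (SE 1.52), and C1qa, its neighbour chain, differed by 3.04 (SE 1.29). Apoe, a lipid carrier, was 0, 4998, 1329, 142947, 9557 and 29556, a difference of 11.07 (SE 2.38). Cell 25 was at 0 for 7 of the 8 genes of this secreted list, and the list's median difference was 8.44 with 8 of 8 positive. Genes of iron recycling had a median of 2.65 over 7 described members. Among these the metal transporter Slc11a1 differed by 9.17 (SE 1.03) and Fth1 by 2.74 (SE 0.58), both without overlap, and Fth1 was 50488 to 276467 in low-label cells and 14343 to 48025 in labelled cells.

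Neutrophil genes were concentrated in the pair of S100a8-high cells. Of 18 measured genes of granules and maturation, 13, 18, 11, 3, 0 and 1 were above 0, and no labelled cell had more than 7. S100a9, partner of S100a8, was 315659 and 116904 in cells 25 and 33 and at most 6.91 in the other four. The mean over mice hides this split: S100a8 differed by 6.37 (SE 4.33) and S100a9 by 5.91 (SE 4.26), and neither of them separated the sides. The pair differed from each other in stage-related genes. Cell 25 had high Retnlg (86364), a gene of mature neutrophils, and the interleukin 1 decoy receptor Il1r2 (25278), with Camp at 3.13 and Ltf at 9.40. Cell 33 had Camp at 22232, Ltf at 37096, Ngp at 56715 and Chil3 at 30974. All 8 genes of the primary granule list were above 0 in cell 33, among them Elane at 10761, Mpo at 6908 and Ctsg at 3914, and all 8 were at 0 in every labelled cell. The other low-label cells had at most 2 of the 8 above 0. Csf3r, the receptor for the granulocyte growth factor, was not limited to the pair, at 4263, 793, 0, 370, 0 and 606, and was at 0 in all labelled cells.

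**Figure D4:**
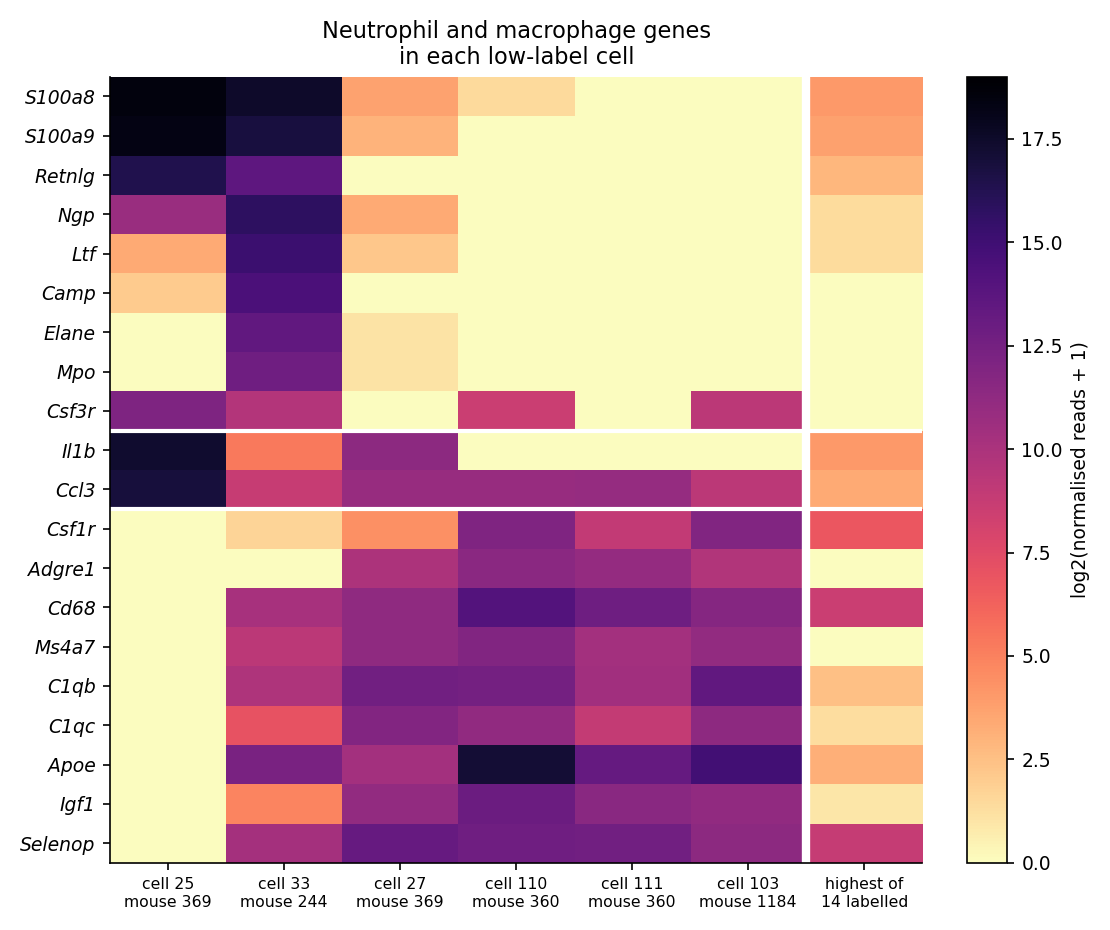
Shading gives log2(normalised reads + 1) for neutrophil genes (top), 2 cytokine genes (middle) and macrophage genes (bottom) in each of the 6 low-label cells; the last column gives the highest of the 14 labelled cells. Cells 25 and 33 are darkest for S100a8 and S100a9, Adgre1 is above 0 in cells 27, 110, 111 and 103 alone, and cell 25 is at 0 for all the macrophage genes shown.

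Markers of other marrow cells were read in the same way. Cell 33 had B lineage genes above 0, 6 of 9 measured, with Ighm at 3759, Cd79b at 986 and Cd79a at 932. It also had 4 of 7 erythroid genes, with the haemoglobin gene Hbb-bs at 5885, and the monocyte gene Ly6c2 at 14331. Hbb-bs was at 0 in the other 5 low-label cells, so its difference of 2.85 (SE 3.14) came from that single cell. Cell 25 had Ighm at 2381 and no other gene of the B list above 0. Of the 3 measured genes of the T and NK list Il7r was 4213 in cell 110 and 885 in cell 111, and Ccl5, also a chemokine of macrophages, was 2457 in cell 27. The platelet chemokine gene Pf4 was 897, 400 and 48.2 in cells 103, 27 and 110, and the other 2 megakaryocyte genes measured were at 0 in all 6. Of the osteoclast list, Atp6v0d2 was 322, 188 and 940 in cells 33, 110 and 111 and at 0 elsewhere. Whether cell 33 holds RNA of more than 1 cell was not tested.

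Antigen presentation and host defence genes were higher in most low-label cells. For class II presentation 5 of 7 genes were described, all positive, with a median of 7.90. The list's summed level had a median of 0 in labelled cells, so the filter largely fixed these signs. Cd74 was 3.13, 4865, 9016, 29.3, 5135 and 6378, so the lowest value was again in cell 25. H2-Ab1 and H2-Eb1, class II chains, differed by 7.90 (SE 1.46) and 8.02 (SE 1.34), and H2-Eb1 was at 0 in all labelled cells. All 10 class I presentation genes had a positive difference, with a median of 2.93, and none separated the sides. B2m, the shared light chain, was 7146 to 37484 against 1881 to 7675, an overlap between cell 33 and the highest labelled cell. H2-K1 differed by 4.58 (SE 1.14) and the immunoproteasome gene Psmb8 by 6.36 (SE 1.76). The phagocyte oxidase, which makes superoxide, had 5 of 6 genes described, all positive, with a median of 7.61; 1 of the 5, Rac2, is a gene of the rule, so its direction was set by the choice of cells. Its catalytic subunit Cybb was at 0 in all labelled cells and 6.26, 2644, 838, 5655, 2168 and 170 in the low-label cells. Fc and pattern receptors had a median of 4.57 over 11 genes, 9 of them positive.

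Chemokine and cytokine genes had a median of 5.13 over 15 described members. Of these, 4 lay above all labelled cells, beside 0.416% of all described genes: Tnf, Ccl3, Ccl4 and Cxcl10. Ccl3 was 120534 in cell 25 and 417 to 1947 in the other 5, against at most 9.20 in labelled cells. Ccl4, made from a neighbouring gene, was 3.13, 51.6, 14059, 4542, 1511 and 4943, so cell 25, highest for Ccl3, was lowest for Ccl4. That lowest value was 1 read, beside at most 3.07 in labelled cells. The separation of Ccl4 therefore rests on how reads were scaled. Cxcl10, an interferon-induced chemokine, was 3.13, 2.15, 6623, 1279, 435 and 1441 against at most 1.41 in labelled cells, and it reached 8365 in a proliferating-sorted cell. Its 2.15 in cell 33 and 1.41 in a labelled cell were 1 read each, so the separation of Cxcl10 also rests on scaling. Il1b, the interleukin 1 beta gene, was 163077 in cell 25, 38.7 in cell 33, 2717 in cell 27 and 0 in the other three. Interferon response genes had a median of 2.53 over 26 members, 24 of them positive and none free of overlap. Irf7, a regulator of interferon genes, was 0, 6.44, 2883, 275, 601 and 0, a difference of 3.59 (SE 2.00), and was above 0 in 1 of 14 labelled cells. Oas1a, an interferon-induced antiviral gene, differed by 7.46 (SE 1.21). Cells 27, 110 and 111 had the highest interferon levels and cell 103 the lowest, 1.48 in mean log2 over the list against 0.71 to 4.28 in labelled cells.

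The myeloid transcription factors had a median of 2.63, with 9 of 12 positive and 1 free of overlap, Spi1, itself a gene of the rule. Spi1 was 141, 1317, 747, 1780, 344 and 970 and at 0 in all 14 labelled cells. Lcp1, a leukocyte actin bundler also used by the rule, was 2879 to 9149 against at most 0.860. Immediate early genes, induced within minutes of stimulation, had a median of 4.91 with 9 of 10 positive. Zfp36, which limits cytokine mRNA, was 451, 840, 279, 1843, 1884 and 6067, above all labelled cells (at most 111). Fos differed by 6.07 (SE 2.30) and Dusp1 by 5.92 (SE 1.64), and both overlapped.

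Besides Luc2, the 15 largest negative differences without overlap were genes of varied roles, 3 of them in the keratin or actin lists (Krt8, Krt18 and Cald1). Crabp1, a retinoic acid binding protein (chr9:54764748-54773110, plus strand), was 0, 4.30, 1.15, 0, 9.10 and 9.32 in low-label cells and 2575 to 9746 in labelled cells, a difference of −10.31 (SE 0.65). Krt8 was 9.40, 8.59, 0, 1.72, 0 and 3.99 against 962 to 15246, a difference of −10.24 (SE 0.66). Krt18, its partner in the filament, was at most 3.13 against 61.6 to 7215, a difference of −9.61 (SE 0.70). The keratin and epithelial list had 3 of 9 genes described, all negative, with a median of −9.61. The LIM protein gene Fhl2 and the growth hormone receptor Ghr were at 0 in all 6 low-label cells, against 189 to 1724 and 37.4 to 2469. The ubiquitin ligase Nedd4 differed by −9.40 (SE 0.77), the matrix protein Sparc by −9.29 (SE 1.30), and Cav1, the coat protein of caveolae, by −9.28 (SE 0.95). Tm4sf1 (−9.18), the receptor Tnfrsf12a (−9.11), the actin regulators Eps8 (−9.04), Cttn (−9.02) and Cald1 (−8.93), the peroxidase Gpx8 (−8.96) and Ifitm1 (−8.92) completed this set. Krt8 has a processed pseudogene, Krt8-ps, that was also below in every low-label cell, so reads of this pair may be split between the copies.

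Among lists of structural genes, all 11 described actin and tropomyosin genes were negative (median −5.35). Of these, 3 did not overlap, beside 1.12% of all described genes below: Cald1, Tpm1 (−5.76, SE 1.30) and Cnn3 (−6.89, SE 1.66). Tpm1, tropomyosin 1, was 6.26, 198, 220, 134, 253 and 3.99 against 599 to 6122. The bundler Pls3 differed by −9.47 (SE 0.73) and overlapped only because 1 labelled cell was at 0. For mesenchymal and adhesion genes 9 of 12 were negative (median −3.32), and Cavin1, a second caveolar gene, was at 0 in all 6 low-label cells. Vim, the intermediate filament of mesenchymal cells and of leukocytes, was alike in level, 1875 to 7628 against 1018 to 7718, with a difference of 0.04 (SE 0.53), a sign that flips when cells are rescaled to the same total. The nuclear RNA Malat1 was 353 to 18452 against 416 to 25154, a difference of 0.08 (SE 0.98) whose sign flips in the same way. Annexins and S100 genes of epithelial and mesenchymal cells were all negative, 10 of 10, with a median of −1.50, close to that of all genes. Lgals1, galectin 1, was the member without overlap, at 40.7 to 7949 against 9777 to 27151.

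Genes of growth were low in the low-label cells, though the labelled cells were themselves sorted as dormant. For G1/S genes the median was −4.54, with 22 of 23 members negative, and for G2/M genes −4.17, with 24 of 24, and none separated the sides. Over all described genes the median was −1.71, and 9089 of 11299 were negative. The G1/S median turned to 0.19 when the comparison was limited to the 2 labelled cells, of 1 mouse, with fewer than 2 leukocyte genes. Mki67, the proliferation antigen, was above 0 in 2 low-label cells (100 in cell 27, 2.28 in cell 111) and 8 of 14 labelled cells. Top2a, topoisomerase of dividing cells, was at most 6.65 in low-label cells and reached 3319 in a labelled cell. Cyclin D1 (Ccnd1) was 0 in 4 low-label cells, 3.99 in cell 103 and 91.0 in cell 111, against 75.7 to 730. The mitotic spindle gene Tpx2 was at 0 in all 6 and the helicase gene Mcm7 at most 96.4. Cdkn1a, the cell cycle inhibitor p21, differed by −3.53 (SE 1.74), with 1152 in cell 27 and 0 in cell 103.

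Ribosomal protein genes were the list with the most members below all labelled cells, 9 of 30, and all 30 were negative with a median of −2.31. Over all 11299 described genes 1.12% lay below all labelled cells, 9089 were negative and the median was −1.71. Part of this lay in 1 cell: the mean log2 over the list was 4.91 in cell 25 and 8.87 to 10.33 in the other 5, against 10.52 to 11.98 in labelled cells, so each of the 6 lay below the labelled range. The list took 0.204% to 1.26% of the reads of a low-label cell and 1.37% to 4.85% of a labelled cell. Rps18 was 12.5, 1405, 800, 1040, 803 and 515 against 2051 to 10318, Rpl8 differed by −3.24 (SE 1.22) and Rps4x by −3.32 (SE 2.19). The margin for Rps4x was narrow, at most 1859 in low-label cells against at least 1866 in labelled cells. Many ribosomal genes have near-identical pseudogenes, and 11 of the 126 genes below were pseudogenes, so single members are uncertain. All 14 nucleolus and ribosome biogenesis genes were negative, with a median of −5.12 and Nop58 at −6.56 (SE 1.20). Glycolysis and hypoxia genes had a median of −1.50, smaller in size than the −1.71 of all genes, with 4 of 18 positive and members from −6.79 to 2.49. The lowest, Pfkl, a phosphofructokinase, was at 0 in 4 low-label cells and differed by −6.79 (SE 0.95).

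**Figure D5:**
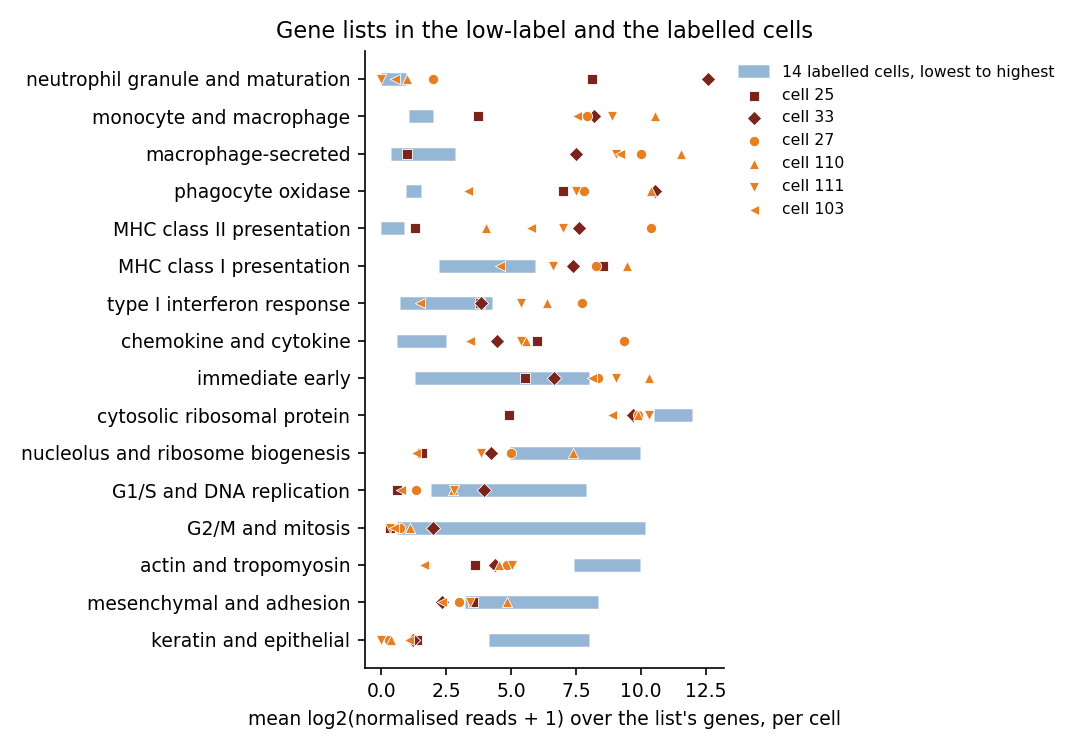
For 16 gene lists the x axis gives a cell's mean log2(normalised reads + 1) over the list's genes; symbols are the 6 low-label cells (cells 25 and 33 dark) and blue bars the range of the 14 labelled cells. The low-label cells lie left of the bar for ribosomal protein, actin and keratin genes, and cells 25 and 33 stand apart at 8.12 and 12.57 for the neutrophil genes.

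The 8 labelled cells with 5 or more leukocyte genes had medians between those of the sides for Lyz2, Tyrobp, Krt8 and eCFP, but not for Cald1, where theirs (1696) was above that of the 14 labelled cells (1512). Their Lyz2 was 22.0 to 95205 with a median of 1708, and Tyrobp 0.628 to 5800 with a median of 326. Krt8 had a median of 2960 in them, beside 4049 in the 14 labelled cells, and eCFP a median of 1383. These cells were themselves chosen by leukocyte genes, so their values are a description.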

How the data were processed

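Single-cell cDNA was made with the SMARTer Ultra Low kit with spike-in RNAs and Nextera XT libraries, in batches that each held 1 sorted state, per the labels' protocols. STAR, RSEM and the builds GRCm38 and mm10 are named, without versions, in the submitters' processing notes. The deposited values are a signal, reads per gene and cell normalised by the authors with BASiCS, per the series text; whether counting used strand is not given in the sources used here. In every cell 100% of gene values were whole multiples of 1 step (tolerance 0.01 reads), which gave the recovered reads used for depth; no count test was run. A second deposited table, of fewer mice, was not used.

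Values were taken as log2(value + 1), averaged within a mouse and then over mice, for genes above 0 in at least 3 of the 20 cells. Cells of 1 mouse are not replicates, so errors are over mice. The SE combines the spread over the 4 mice of each side, treated as independent although 2 mice gave cells to both sides. No test was made, since measured values chose the sides. The members and the 39 gene lists were chosen with earlier results of these data known. Named are, per direction, the 15 genes with the largest difference among those without overlap, up to 4 genes per list, and a fixed set of markers and tumour genes; further list members and leading genes of single cells were named after their values were seen. Symbols were found for 12852 of 12885 Ensembl IDs. Gene positions are from the GENCODE annotation of GRCm38 and promoters from RefSeq (GRCm38.p6). Alternatives covered the thresholds, the comparison cells, scaling, pseudocount, filters, averaging and mice; a split by spike-ins above 0 and leaving out cell 25 were chosen after seeing the data. Python 3.11.15, numpy 2.4.6, pandas 2.3.3 and scipy 1.17.1 were used, and the calculation was tested on simulated data.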

Additional observations from a re-analysis of the deposited data

Results flagged for a closer look

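For 102 measures over the 6 low-label cells, 1 cell was checked for a gap from the other 5 that is large for a group of this size (Dixon's criterion). It was met for 20 measures. A gene at 0 in the other 5 cells meets it by construction, as for Gpx8, Cttn and Hbb-bs. The measures include eCFP, which chose the cells, and are not independent, because they share the same 6 cells. The number of measures that met it is therefore a description, with no chance rate to set it against. All values here are log2(normalised reads + 1).

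Cell 25 stood apart in 10 measures. It was lowest for the ribosomal protein list (mean 4.91), the ribosomal genes Rps18 (3.76) and Rpl8 (0), the protease Ctss (2.86), complement C1qb (0), the interferon-induced gene Oas1a (0) and galectin Lgals1 (5.38). It was highest for the chemokine Ccl3 (16.88) and for Slfn2 (13.91), and for Gpx8 (2.05), where the other 5 were at 0. The Gpx8 value was 1 read, so it does not mark this cell. This was the cell with the fewest genes above 0, 2673.

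Cell 27, nearest to the label threshold, was highest for eCFP (6.47), Eps8 (6.65) and Mki67 (6.66) and lowest for Lyz2 (15.67). Cell 103 was lowest for Rps4x (1.87) and highest for Cttn (1.87), where the other 5 were at 0 and cell 103 had 2 reads. Cell 110 was highest for the helicase gene Mcm7 (6.61) and for Pfkl (5.98). Cell 111 was highest for Ccnd1 (6.52), and cell 33 for the haemoglobin gene Hbb-bs (12.52).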

How the results depend on the processing

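Cell numbers do not pair cells; the pairing of sides within the mice that gave both is below. The alternatives gave 1580 values for 79 genes. Of these values 1430 moved by less than the spread between mice, 130 moved by more and 20 changed sign, in 6 genes. For the 420 values of 21 list medians these numbers were 399, 19 and 2.

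The counts of genes with every low-label cell above and below were 166 and 717 with labelled cells of fewer than 2 leukocyte genes (2 cells of 1 mouse), 13 and 61 with all labelled dormant-sorted cells, and 131 and 2080 within the mice that gave both sides, where the median of all genes was −3.94. They were 71 and 80 by median of ratios, 423 and 1686 among cells with 40 or more spike-ins (3 and 2 cells), and 200 and 269 among cells with fewer. Above, the count was 135 without the S100a8-high cells and 105 without cell 25; below, it was 66 against proliferating-sorted cells. Leaving out 1 mouse gave 49 to 135 above and 141 to 404 below. With fewer cells on a side more genes separate, by construction.

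Signs changed as follows. With labelled cells of fewer than 2 leukocyte genes, the difference in genes above 0 was 142 and the G1/S median 0.19. With fewer spike-ins, a setting without either S100a8-high cell, the neutrophil median was −0.22, S100a8 −0.90, S100a9 −1.27, Hbb-bs −0.37 and Malat1 −1.54; with 40 or more, Csf1r was −1.44. Hbb-bs was −0.28 without the S100a8-high cells, −0.48 within shared mice and −0.28 to 4.13 with 1 mouse left out. Malat1 was −0.54 against all labelled cells, −0.63 without the S100a8-high cells, −0.062 rescaled to the same total, −0.10 without cell 25 and −0.58 to 0.58 with 1 mouse left out. Vim was −0.10 rescaled to the same total, −0.71 against proliferating-sorted cells and −0.20 to 0.39 with 1 mouse left out. Apart from a setting's smaller number of cells, the cause was not tested. A gene at 0 in a cell was not detected at that cell's depth, and 1 read was worth 1.15 to 3.13 normalised reads.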
